A study of Homo sapiens with 12 samples.

Results

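*TRH*, the gene of thyrotropin-releasing hormone, is 1 of the 10976 genes listed for human cerebral organoids (COs) that were grown from wild-type (WT) cells or from cells edited at *c-JUN* (KO). It was chosen by its measured values across line and day, which were high in the KO COs and low in the WT COs, and was then found in each file by its gene symbol. Its levels and differences are therefore given as a description and were not tested. All COs came from H1, a line of human embryonic stem cells, under an unguided protocol. The WT libraries came from unedited H1, and the KO libraries from KO#2 and KO#10, which were made from H1 with CRISPR-Cas9 against *c-JUN* and are 1 clone each. Each of these 3 lines was sampled on day 12 and on day 24, with 2 libraries per line and day, and each library held the total RNA of 3 to 4 pooled COs after removal of ribosomal RNA. This gave 2 WT and 4 KO libraries on each day and 12 libraries in all.

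TRH is a peptide of 3 amino acids that is made from a longer precursor. In the adult, neurons of the hypothalamic paraventricular nucleus release it to make the pituitary secrete thyrotropin, and thyroid hormone in turn lowers *TRH* transcription there. The gene is also used elsewhere in the brain, in the developing diencephalon, in the retina and in endocrine cells of the pancreas. The precursor is sorted into dense-core granules, cut at pairs of basic residues by prohormone convertases, trimmed by carboxypeptidase E, cyclised at its glutamine and amidated by PAM, for which the glycine that follows the peptide is the donor.

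The deposited interval of *TRH* (ENSG00000170893) lies on the plus strand of chromosome 3 from 129974688 to 129977935, in coordinates that match human GRCh38. GENCODE release 29 places the gene from 129974305 to 129977938. The single transcript of it that was read here has 3 exons and 714 coding bases, or 238 codons before the stop. No other gene of that release overlaps it. The sequences that give the hormone are shown because they are what the gene is for. The precursor coded by that transcript holds 6 copies of glutamine, histidine, proline and glycine, all coded in its exon 3. They are printed from GRCh38, plus strand, with the 12 bases of each copy in capitals and the 6 bases on either side in lower case.
Copy 1, chr3:129976731-129976754: aaacgtCAGCATCCAGGCaaaaga
Copy 2, chr3:129976821-129976844: aaacggCAGCACCCTGGCcgacga
Copy 3, chr3:129976884-129976907: aagcggCAGCATCCTGGCcggcgc
Copy 4, chr3:129976935-129976958: aagcggCAGCACCCAGGCagaagg
Copy 5, chr3:129977037-129977060: aaacgcCAGCATCCGGGCaagagg
Copy 6, chr3:129977160-129977183: aagcggCAGCACCCTGGTcggcgg
The lower-case bases on both sides of each of the 6 copies are a pair of codons for lysine or arginine, the residues at which the convertases cut. The copies differ from one another only in bases that leave the 4 amino acids as they are.

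*JUN*, the edited gene, did not fall in the libraries labelled KO. The values are normalized whole-number scores with no unit, on a scale where the median gene is at 17 and the highest at 5585 in every library. On day 24 WT stood at 13 and 15, KO#2 at 39 and 39 and KO#10 at 29 and 32, all KO libraries above both WT libraries. It rose by 1.25 on the log2 scale (standard error 0.17, adjusted *p* = 0.0184 in limma, a linear model fitted to all genes on log2 (value + 1)), and on day 12 WT stood at 4 and 8, KO#2 at 19 and 18 and KO#10 at 14 and 13. These scores are of RNA and do not show whether the protein is made.

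*TRH* was low in WT COs on both days. The WT COs had *TRH* values of 1 and 2 on day 12 and of 4 and 5 on day 24. Those of KO#2 had 6 and 20 on day 12, then 70 and 37 on day 24. For KO#10 the values were 9 and 21 on the first of these days, then 75 and 56. Every KO library was above both WT libraries of its day, and the lowest KO library of day 12 was above the highest WT library of day 24. Such a separation was frequent in these data: 22.2% of the 9289 genes tested on day 24 and 8.23% of the 8885 tested on day 12 had every KO library above both WT libraries, and 21.8% and 8.34% had every KO library below them. The position of *TRH* is therefore described by the size of its differences below.

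**Figure D1:**
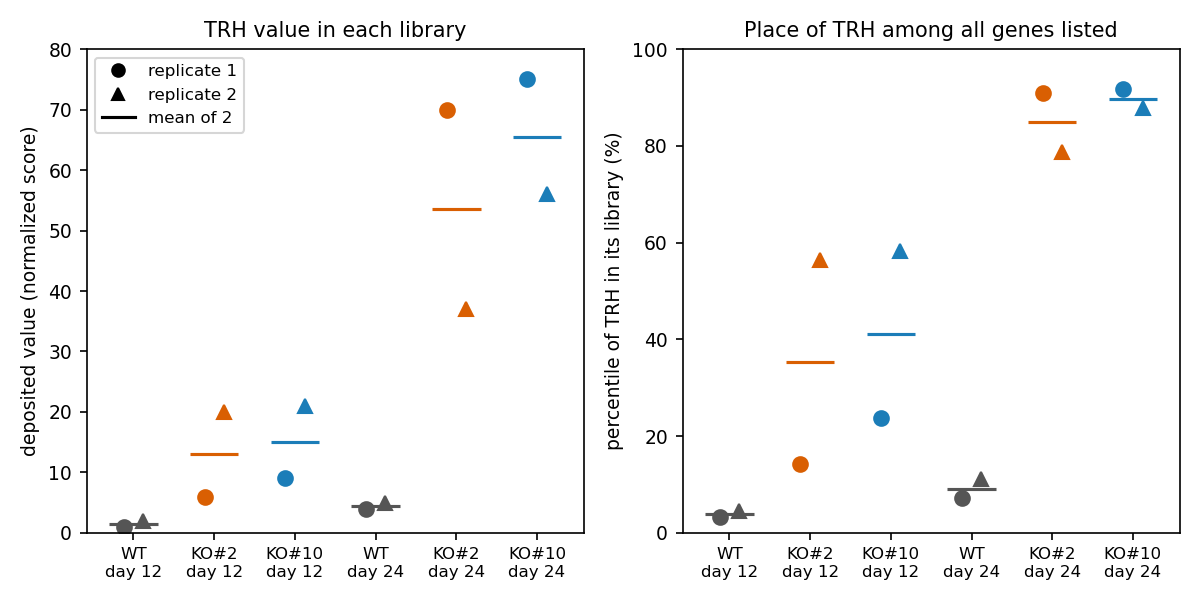
Left, the deposited *TRH* value (normalized score) in each library by line and day, with circles for replicate 1, triangles for replicate 2 and a line at the mean of 2 libraries. Right, the percentile of *TRH* among the 10976 genes of the same library. WT libraries stay at values of 1 to 5, KO libraries lie at 6 to 21 on day 12 and at 37 to 75 on day 24.

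The 6 groups were ordered by their mean values. WT was lowest at 1.5 ± 0.707 on day 12 and 4.5 ± 0.707 on day 24 (SD, n = 2 libraries here and below). KO#2 and KO#10 followed on day 12 at 13 ± 9.90 and 15 ± 8.49, and their libraries overlapped. KO#2 and KO#10 were highest on day 24 at 53.5 ± 23.3 and 65.5 ± 13.4, again with overlap. The remaining neighbours in this order did not overlap, although WT on day 24 and KO#2 on day 12 were separated only by a value of 5 against a value of 6. The clones thus stood side by side on each day, with KO#10 above KO#2 by 0.34 on day 24 and 0.29 on day 12 on the scale of log2 (value + 1), against a replicate SD of 0.66 pooled over the 6 groups.

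*TRH* stood near the bottom of the gene list in WT libraries and in its upper part in the KO libraries of day 24. Its percentile among all genes on day 12 was 3.19 and 4.57 for WT, 14.3 and 56.4 for KO#2, and 23.7 and 58.4 for KO#10. The percentiles of day 24 were 7.16 and 11.1 for WT, 91.0 and 78.7 for KO#2, and 91.7 and 87.9 for KO#10. In KO#10 replicate 1 of day 24, 904 genes had a higher value than *TRH*, whereas 10493 did in WT replicate 1 of day 12. Low values are shared by many genes, and 264 others had the same value of 1 as *TRH* in that WT library. *TRH* has a short transcript of 1978 exonic bases, and when each value was divided by exon length, its percentile on day 24 became 26.1 and 32.5 in WT and 86.9 to 93.1 in the KO libraries.

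The difference between KO and WT was among the largest upward differences of any gene on both days. On the log2 (value + 1) scale it was 3.42 on day 24, a ratio of the mean values of 13.2, and 8 of 9289 genes had a larger one. These were *NEUROG2* (3.81), *MIR9-3HG* (3.78), *GPM6A* (3.77), *LINC00461* (3.66), *EPHA3* (3.66), *TBR1* (3.63), *MAP2* (3.6) and *NEDD4* (3.50), and the next genes after *TRH* were *LINC02895* (3.35) and *WNT8B* (3.32). On day 12 the difference was 2.45, with 5 of 8885 genes above it. The scale understates the change of low values, as those of *TRH* in WT are. Taken clone by clone, the day 24 difference was 3.25 for KO#2 and 3.59 for KO#10, and that of day 12 was 2.31 and 2.60. Both clones are compared with the same 2 WT libraries on each day, so that these values are not independent of each other.

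**Figure D2:**
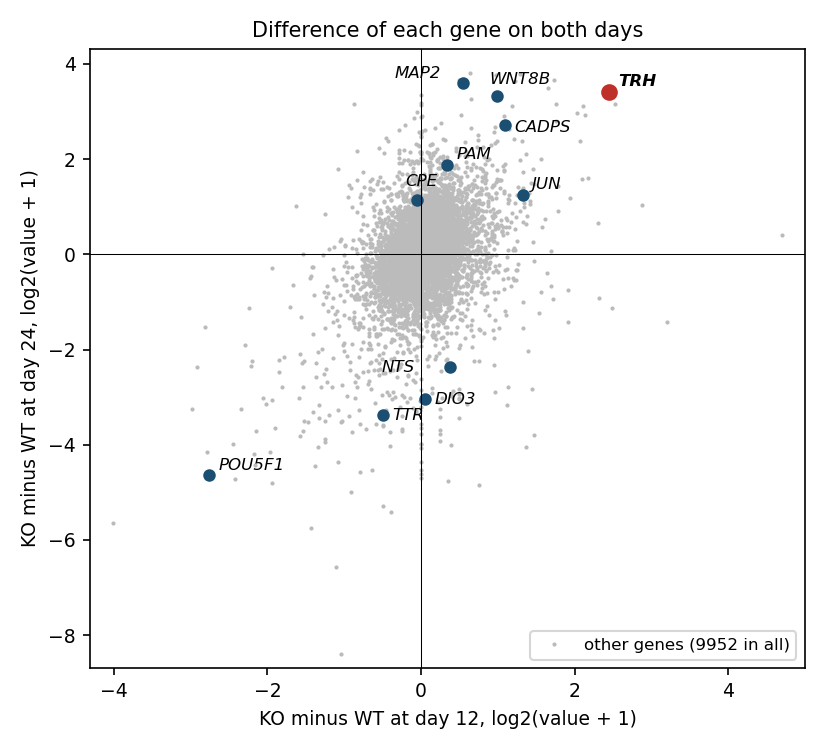
Each point is 1 of 9952 genes, placed by its KO minus WT difference on day 12 (horizontal) and day 24 (vertical), both as differences of mean log2 (value + 1). *TRH* (red, 2.45 and 3.42) stands apart at the upper right, and *JUN*, *PAM*, *CPE*, *CADPS*, *WNT8B*, *MAP2*, *NTS*, *DIO3*, *TTR* and *POU5F1* are marked in blue.

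*TRH* values were higher on day 24 than on day 12 in all 3 lines, and in KO by amounts that differed between the replicate numbers. From day 12 to day 24 *TRH* was higher by 1.16 in WT and by 2.12 in KO on the log2 (value + 1) scale, where 683 and 141 of 9952 genes had larger differences. The KO minus WT difference was larger on day 24 than on day 12 by 0.96, and 601 genes exceeded that. Among libraries numbered 1 the KO minus WT difference was 2.06 on day 12 and 3.88 on day 24, whereas among those numbered 2 it was 2.84 and 2.96. The increase of the difference between the days was therefore 1.81 for the libraries numbered 1 and 0.11 for those numbered 2. On day 12 replicate 2 was above replicate 1 by 1.58 in KO#2 and by 1.14 in KO#10. A step of at least 2-fold in this direction in both clones was seen for 1.47% of 9952 genes. On that day, 10 of the 12 neuronal genes listed also had replicate 2 above replicate 1 in both clones, as did 31.7% of the 9952 genes, and the part of this in the *TRH* values was not tested.

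The genes with roles around *TRH* were read in 7 lists. Where 4 KO values of a gene are given, they are in the order KO#2 replicates 1 and 2, then KO#10 replicates 1 and 2. For these, limma tested every gene that reached a value of 10 in 2 or more libraries of the day, and calls required both an adjusted *p* under 0.05 and a 2-fold change. On day 24 this called 4.22% of all 9289 genes higher and 3.79% lower in KO, and 6.2% and 5.46% passed with an unadjusted *p* in its place. Here and below, counts at an unadjusted *p* keep the 2-fold change. Of the 101 members of the lists, 53 are among the genes listed and 38 were tested on day 24, of which 8 rose, 4 fell and 26 were not called. Some of those called passed the filter through a single group, and the counts and medians include them. *LHX9*, *PCSK1N* and *CADPS* did so through KO libraries alone, and *DIO3* and *NTS* through WT libraries alone. *FURIN* reached 10 in both WT libraries and, among the KO libraries, only in KO#10 replicate 1. On day 12 limma called none of the 25 tested, where 0.0225% of all genes were called higher and 0.0675% lower. At an unadjusted *p* under 0.05 and 2-fold, 2 of the 25 were higher and 0 lower, against 0.9% and 0.732% of all genes. With the replicate number as a block, the count over all genes of that day was 36 higher and 35 lower in place of 2 and 6, and that of the lists remained 0, with 2 higher at an unadjusted *p*. The interaction of genotype and day, fitted over all 12 libraries, was called for none of the 39 tested by limma, where 0.452% and 0.854% of 9952 genes were called higher and lower. At an unadjusted *p*, 6 of the 39 were higher and 7 lower, against 4.51% and 5.17% of all genes.

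**Figure D3:**
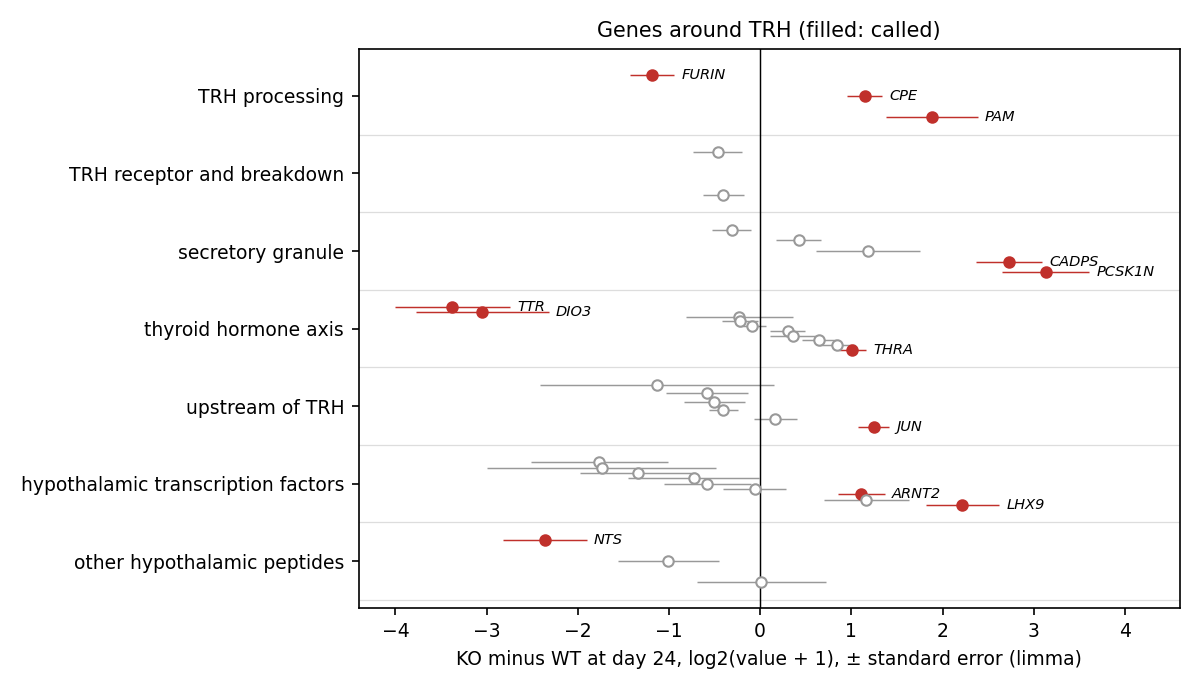
KO minus WT differences on day 24 (log2 fold change with its standard error from limma) of the 38 tested genes in the 7 lists around *TRH*, 1 point per gene. Filled red points are called and named, open grey points are not. The called genes lie on both sides of 0, with *PCSK1N* at 3.13 and *TTR* at -3.38 as the extremes.

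The enzymes that process the precursor moved in both directions. *CPE*, which removes basic residues after cleavage, was at 45 and 37 in WT against 96, 92, 72 and 110 in the KO libraries of day 24, and rose by 1.15 (standard error 0.19, adjusted *p* = 0.0206 in limma). *PAM*, the amidating enzyme, was at 73 and 34 in WT and between 110 and 318 in KO, and rose by 1.88 (standard error 0.50, adjusted *p* = 0.0484 in limma). In both genes the KO libraries lay wholly above the WT libraries. *FURIN*, a convertase of the secretory pathway, was at 17 and 19 in WT against 6, 6, 10 and 8 in KO, and fell by 1.18 (adjusted *p* = 0.0284 in limma). These 3 were the measured members of 7, with a median difference of 1.15 against 0.01 over all genes, and *PCSK1*, *PCSK2*, *QPCT* and *QPCTL* were not analysed here. On day 12, where *TRH* already differed, *CPE* was at 17 and 17 in WT against 9 to 33 in KO, with overlap.

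Of the list of dense-core granule genes, 10 of 11 are listed and 5 were tested, of which 2 rose and none fell on day 24 in limma, with 2 higher and 0 lower at an unadjusted *p* under 0.05. *PCSK1N*, which codes for a granule protein that inhibits the convertase of *PCSK1*, was at 1 and 0 in WT against 8, 16, 8 and 16 in KO on day 24, and at 0 in all 6 libraries of day 12. Its fitted difference of 3.13 on day 24 (adjusted *p* = 0.0196 in limma) depends on the 1 added to each value, since WT is near 0. *CADPS*, which primes granules for release, was at 4 and 3 in WT against 35, 36, 15 and 35 in KO, and rose by 2.73 (standard error 0.36, adjusted *p* = 0.0184 in limma). Of the granins, *SCG5* was at 17 and 13 in WT against 20, 25, 14 and 24 in KO on day 24 and was not called, and *SCG2* was at 3 and 1 in WT against 3 to 11 in KO. *CHGA* was at 1 and 0 against 3, 3, 1 and 3, *SCG3* at 4 and 7 against 8, 9, 1 and 6, and *VGF* at 2 and 4 against 1, 1, 0 and 2. All but *SCG5* were below the filter. The median difference of the 5 tested genes was 1.18.

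The TRH receptor *TRHR* and the TRH-degrading ectoenzyme *TRHDE* were not analysed here. Of the cytosolic peptidases that can cleave TRH, *PGPEP1* was at 10 and 13 in WT against 7 to 11 in KO on day 24, a difference of -0.40 (adjusted *p* = 0.235 in limma), and *PREP* at 26 and 35 against 16 to 32, a difference of -0.47 (adjusted *p* = 0.240 in limma). Neither was called, and their WT and KO libraries overlapped.

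Of the thyroid hormone axis, 12 of 21 members are listed and 10 were tested, of which 1 rose, 2 fell and 7 were not called, with a median difference of 0.11. *THRA*, a thyroid hormone receptor, was at 13 and 10 in WT against 23 to 26 in KO, and rose by 1.01 (standard error 0.15, adjusted *p* = 0.0196 in limma). *DIO3*, the deiodinase that inactivates thyroid hormone, was at 23 and 25 in WT against 6, 2, 3 and 0 in KO, and fell by 3.04 (standard error 0.73, adjusted *p* = 0.0386 in limma). *TTR*, which carries thyroid hormone and is also a marker of choroid plexus and endoderm, was at 424 and 471 in WT against 22, 35, 130 and 31 in KO, and fell by 3.38 (adjusted *p* = 0.0244 in limma). The summed endoderm markers, *TTR* among them, were at 6486 to 6636 in WT against 33 to 1161 in KO on that day, and their part in the *TTR* difference was not tested. *THRB*, the receptor through which thyroid hormone lowers *TRH* in the adult, was at 3 and 5 in WT against 0 to 3 in KO and was below the filter.

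Among the genes of signals known to act on *TRH* transcription, 6 of 9 are listed and all 6 were tested. *JUN* was the only member called, and the other 5 (*STAT3*, *SOCS3*, *CREB1*, *CREM* and *FOS*) were not. *CREB1*, which codes for a factor that mediates cyclic AMP signals, was at 39 and 50 in WT against 36 to 63 in KO. *FOS* on day 24 was at 34 and 6 in WT against 47, 1, 8 and 2 in KO, and thus varied within a line as much as between lines on that day. On day 12 *FOS* was at 1 and 6 in WT against 25, 23, 20 and 14 in KO. That difference of 2.49 was not called (adjusted *p* = 0.108 in limma). The median difference of this list on day 24 was -0.45.

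The transcription factors of the hypothalamus were not raised together. Of 22, 12 are listed and 9 were tested on day 24, and 2 rose, none fell and 7 were not called in limma (3 higher and 0 lower at an unadjusted *p* under 0.05), with a median difference of -0.58. *ARNT2*, which acts in hypothalamic neurons that make TRH and is expressed more widely, was at 16 and 10 in WT against 31, 36, 21 and 28 in KO, and rose by 1.11 (adjusted *p* = 0.0366 in limma). *LHX9*, used in several parts of the diencephalon and telencephalon, was at 2 and 2 in WT against 11, 13, 8 and 24 in KO, and rose by 2.22 (adjusted *p* = 0.0235 in limma). *NKX2-1*, which marks the ventral hypothalamus, was at 0 in all 12 libraries, and *OTP* and *SIM1*, which define the lineage of paraventricular TRH neurons, were not analysed here. *RAX*, of the eye field and early hypothalamus, was at 46 to 70 in all 6 libraries of day 12, and on day 24 at 18 and 11 in WT against 29, 0, 6 and 1 in KO (adjusted *p* = 0.339 in limma). *SIX3*, of the anterior forebrain, was at 26 to 59 on day 12 and on day 24 at 17 and 8 in WT and 14, 9, 6 and 4 in KO (adjusted *p* = 0.402 in limma). *SIX6* was at 6 and 5 in WT against 13, 0, 3 and 1 in KO on day 24. *POU3F2*, which acts in the paraventricular lineage and widely in other neurons, was at 6 and 2 in WT against 10, 13, 5 and 11 in KO, a difference of 1.16 that was not called (adjusted *p* = 0.117 in limma). With *NKX2-1* at 0 throughout and differences of both signs among the tested factors, no hypothalamic identity is given to any library, and the gene is referred to by its name alone.

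Of 27 other genes of hypothalamic peptides, 8 are listed and 3 passed the filter on day 24. *NTS*, the gene of neurotensin, was at 14 and 27 in WT against 2, 3, 6 and 2 in KO, and fell by 2.36 (standard error 0.46, adjusted *p* = 0.0266 in limma). *SST*, the gene of somatostatin, was at 12 and 39 in WT against 11, 52, 33 and 12 in KO, a difference of 0.01 (adjusted *p* = 0.991 in limma). *NMU*, the gene of neuromedin U, was at 7 and 12 against 2 to 10 and was not called. *GAL*, the gene of galanin, was at 2 and 10 in WT against 0 in all 4 KO libraries, below the filter. Because *TRH* was chosen for its high values in KO, its place beside these genes is a description only. Among the 8 listed and *TRH*, it had the highest value in 3 of the 4 KO libraries of day 24. In KO#2 replicate 2 *SST* was higher (52 against 37). These are levels of whole genes and were not divided by length.

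The calls on these genes depended on single libraries, as did those over all genes. In the 7 lists, where 12 genes were called, calls were counted again over all list genes tested. Without either WT library only 1 remains on that day, so counts from those fits are not given here. Limma called none without KO#2 replicate 2 or without KO#10 replicate 2 of day 24. In either case 6 were higher and 4 lower at an unadjusted *p* under 0.05 and 2-fold. Limma called 4 higher and none lower without KO#2 replicate 1, with 8 and 5 at an unadjusted *p*, and 10 higher and 6 lower without KO#10 replicate 1. Over all genes the 392 higher and 352 lower became 5 and 10 without KO#2 replicate 2 and 6 and 17 without KO#10 replicate 2. They became 145 and 118 without KO#2 replicate 1, and 722 and 624 without KO#10 replicate 1.

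That last library stood apart from the other KO libraries of day 24 in its cell type markers, but not in *TRH*. In bulk RNA such as this, fewer cells of a type and less RNA per cell cannot be told apart. Summed over the 12 listed neuronal genes, WT had 352 and 188, KO#2 had 1697 and 2094, and KO#10 had 439 in replicate 1 and 1455 in replicate 2. Over the 8 listed mesenchymal genes, WT had 2453 and 2086, KO#2 had 177 and 144, and KO#10 had 2936 in replicate 1 and 160 in replicate 2. Over the 6 listed endoderm genes, WT had 6486 and 6636, KO#2 had 89 and 36, and KO#10 had 1161 in replicate 1 and 33 in replicate 2. This library was the lowest of the 4 KO libraries for 10 of 12 neuronal genes and the highest for all 8 mesenchymal and all 6 endoderm genes.

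*TRH* had its highest value of all, 75, in KO#10 replicate 1. Among the 392 genes called higher in KO on day 24, this library was the highest of the 4 KO libraries for 28 genes (7.14%) and the lowest for 259 (66.1%), against 29.3% and 27.2% of all 9289 genes tested. *MAP2*, a neuronal cytoskeletal gene, was at 668, 1009 and 750 in the other KO libraries and at 95 in this one, and *DCX*, a gene of migrating neurons, at 70, 80 and 56 against 17. *WNT8B*, a WNT ligand of the forebrain, was at 12 and 53 in KO#2, 77 in KO#10 replicate 1 and 46 in KO#10 replicate 2, and so also had its highest value there. Without KO#10 replicate 1 the *TRH* difference of day 24 was 3.29, and with it 3.42. The part of any cell type in the *TRH* values was not tested.

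**Figure D4:**
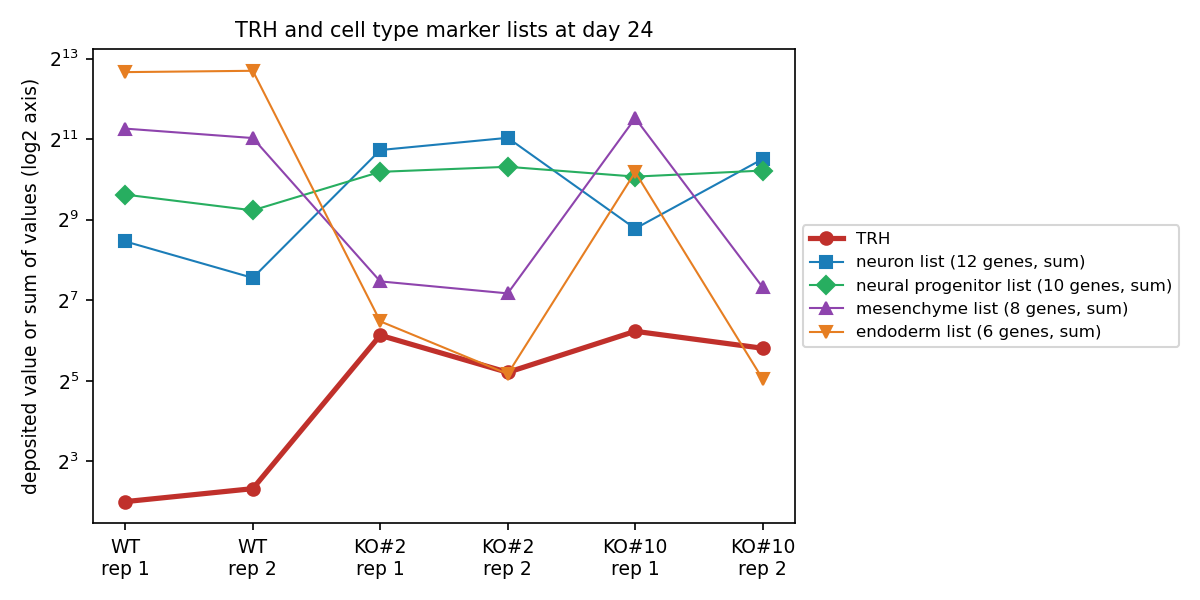
*TRH* (red) and the summed values of the neuron, neural progenitor, mesenchyme and endoderm lists in each of the 6 libraries of day 24, on a log2 axis. In KO#10 replicate 1 the neuron sum drops to 439 and the mesenchyme and endoderm sums rise to 2936 and 1161, while *TRH* is at 75.

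Other marker lists were read beside *TRH* on day 24. Of 10 tested neuronal genes 4 rose and of 10 neural progenitor genes 3 rose, and none of either list fell in limma. At an unadjusted *p* under 0.05 and 2-fold, 9 neuronal and 3 progenitor genes were higher and 0 of either lower. The progenitor genes *VIM* (0.96, unadjusted *p* = 0.000317 in limma) and *NES* (0.55, unadjusted *p* = 0.0189) were higher by less than 2-fold. The progenitor sum was 601 to 788 in WT and 1074 to 1272 in KO. On day 12, where *TRH* was at 1 and 2 in WT against 6 to 21 in KO, it was 640 to 780 in WT and 950 to 1166 in KO, and the neuronal sum was 190 to 288 and 288 to 383. Of the telencephalon list, *TBR1* and *EMX2* rose among 6 tested. Of the list for the diencephalon outside the hypothalamus, 3 of 9 members are listed, and *WNT8B* rose among the 3 tested. *TCF7L2* was at 13 and 17 in WT against 9, 10, 13 and 9 in KO, a difference of -0.51 (adjusted *p* = 0.121 in limma). *LHX5* was at 14 and 8 against 12, 17, 19 and 18, a difference of 0.57 (adjusted *p* = 0.157 in limma), and neither was called. In the eye and retina list none of the 3 tested was called (0 at an unadjusted *p* under 0.05 and 2-fold), and its sum was 111 to 129 in WT and 109 to 195 in KO. On day 12 its sum was 254 to 258 in WT and 331 to 409 in KO, and none of the 4 tested was called in limma. *PMEL* of that list was then at 120 and 98 in WT against 237, 172, 200 and 164 in KO (adjusted *p* = 0.172 in limma). On day 24 *PMEL* differed by 0.91, short of 2-fold, with an adjusted *p* of 0.0372 in limma. For the pancreatic endocrine cells that can make TRH, the defining genes *PDX1*, *INS* and *GCG* were not analysed here. All 8 tested pluripotency genes fell, with a list sum of 509 to 969 in WT and 58 to 88 in KO, while 3 of 6 endoderm genes fell and none of 7 mesenchymal or 3 neural crest genes was called. At an unadjusted *p* under 0.05, all 6 endoderm genes, 2 mesenchymal genes and 1 neural crest gene were lower. Some of the marker genes called also passed the filter through a single group, and the counts include them. *ELAVL4*, *SOX1*, *TBR1*, *EMX2* and *WNT8B* did so through KO libraries alone. *POU5F1*, *TDGF1*, *L1TD1*, *ZFP42* and *HNF4A* did so through WT libraries alone. For *NCAM1* a single WT library, and for *SERPINA1* a single KO library, reached 10.

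The genes whose pattern was most like that of *TRH* over the 12 libraries were sought by Pearson's r on log2 (value + 1). Across the 12 points r reflects the same genotype and day differences as above, and 24 of 9951 genes had an r of at least 0.9, with a median r over all of 0.00. The 10 highest were *FAM217B* (0.96), *CRIM1* (0.95), *SMARCB1* (0.94), *BAALC* (0.94), *IGDCC3* (0.93), *SCARB2* (0.93), *TTC3* (0.92), *SLIT1* (0.92), *SRSF4* (0.92) and *CADPS* (0.92). They were like *TRH* in shape and not in size. *FAM217B*, the first of them, ran only from 5 to 16, and *SRSF4*, which codes for a splicing factor, from 26 to 36, whereas *TRH* ran from 1 to 75, a range of 5.25 on the log2 (value + 1) scale. *SLIT1*, which codes for an axon guidance protein, was at 1 in every WT library, at 1 to 4 in KO on day 12 and at 6 to 10 in KO on day 24. The lowest r were those of *GNPNAT1* (-0.93), *CNKSR2* (-0.93), *IMPA2* (-0.92), *VRTN* (-0.92) and *G2E3* (-0.92). *VRTN* was at 9 and 19 in WT on day 24 and at 0 in all 4 KO libraries, where *TRH* was highest.

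**Figure D5:**
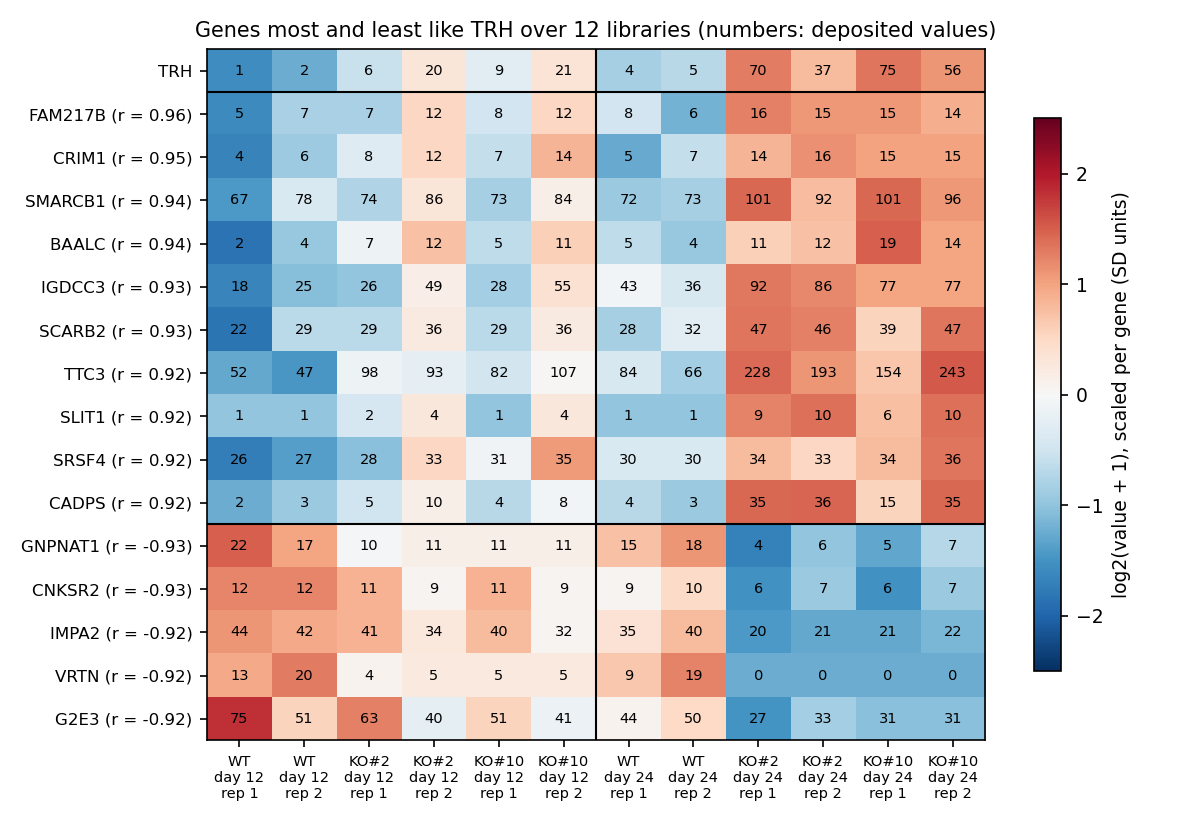
Heat map of *TRH*, the 10 genes with the highest and the 5 with the lowest Pearson's r with *TRH* over the 12 libraries. Colour is log2 (value + 1) scaled per gene to SD units, and the number in each cell is the deposited value, so that the small range of *SRSF4* (26 to 36) can be read beside that of *TRH* (1 to 75).

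No chromosomal neighbour of *TRH* had a difference of its size. Within 1 Mb on either side 14 other genes are listed, and none of the 11 tested was called on day 24 in limma, with 1 (*PLXND1*, lower) past an unadjusted *p* of 0.05 and 2-fold. Their KO minus WT differences lay between -1.30 (*PLXND1*) and 0.78 (*H1-10-AS1*) on day 24 and between -0.20 (*ATP2C1*) and 0.70 (*H1-10-AS1*) on day 12. The nearest gene before *TRH*, *TMCC1-DT* at 56.1 kb, was at 6 and 3 in WT against 4 to 10 in KO on day 24, and the nearest after it, *LINC02021* at 134 kb, at 5 and 5 against 4 to 9. Their r with *TRH* over the 12 libraries ran from -0.45 to 0.57.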

How the data were processed

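Cerebral organoids of 3 lines were profiled by total RNA sequencing at 2 days, 12 libraries in all. The submitters' processing notes name bcl2fastq, Bowtie2 and RSEM, with no versions, and the mouse build mm10. The files hold human genes, and their intervals for all 10976 genes carry identifiers of GENCODE release 29 (3940 with the same start and end), so coordinates are given as GRCh38. What the authors deposited is a score for each gene and library, rounded to a whole number, and not a count. All libraries share the median of 17, the highest value of 5585 and 269 to 271 distinct values, with totals of 473637 to 483149. The normalization is not given in the sources used here. It equalizes the libraries, so their depth is unknown and no counting interval or floor can be given, and a value of 0 or 1 says little about presence. Libraries were grouped by line, day and replicate number from the sample labels. Whether replicates came from separate cultures is not stated, and p-values then measure the spread between these libraries, which may be technical.

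Values were used as log2 (value + 1). Genes that reached 10 in 2 or more of the libraries compared were fitted with limma 3.58.1 (lmFit, eBayes with a variance trend, R 4.3.3), KO against WT within each day (2 and 4 libraries) and the interaction over 12 libraries. The p-values were adjusted by Benjamini-Hochberg over all genes tested, and calls required an adjusted p under 0.05 with a 2-fold change. The test was tried on simulated scores first. *TRH*, the gene lists and the tests were chosen with earlier results of these data known, so *TRH* itself is described and not tested, and counts over lists carry no test of their own. The genes named are *TRH*, *JUN*, list members that were called or that are specific to TRH or define the hypothalamus, the 10 genes most and 5 least like *TRH*, and the genes within 1 Mb. Other list members, and the genes next to *TRH* in the order of differences, were named after their values were seen. Likeness is Pearson's r over genes that passed the filter. Sequences were read from GRCh38 at the coding exons of a single *TRH* transcript of GENCODE release 29. No other per-library column was left unused. Other steps used Python 3.11.15 with pandas 2.3.3, numpy 2.4.6, scipy 1.17.1 and matplotlib 3.10.9.

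Deviations from the group means were correlated between day 12 libraries that share a number (r across genes of 0.43 to 0.60 for the 3 pairs of lines), so the numbers, which come from the sample labels, were taken to pair that day's libraries. On day 24 r was -0.11 to 0.35 and they were not. The main fits did not use this pairing, which entered only as the replicate block among the alternatives. The p-values and calls of day 12 and of the interaction come from fits without it, except where the block is named. Alternatives were other filters, a pseudocount of 0.1, unadjusted p, the replicate block, separate clones, no trend, 1 fit of 12 libraries, values per length, rank correlation and each library left out. Genes absent from the files were not analysed here.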

Additional observations from a re-analysis of the deposited data

Results flagged for a closer look

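Each gene named and each marker list was screened, in the 4 KO libraries of each day, for a highest or lowest library whose gap to the others exceeds the limit of Dixon's test at 95%. In 110 such groups 12 were found. The usual chance of about 1 in 20 does not hold for these rounded scores, since 3 tied values pass the limit whatever the size of the gap, as in 5 of the 6 groups of day 12. *TTR* also counts in the endoderm list, so those groups are not separate. *TRH* was not among them on either day.

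On day 24 all 6 were in KO#10 replicate 1. *CADPS* was at 15 there and at 35 to 36 in the other KO libraries, and *SCARB2* at 39 against 46 to 47. *PLXND1*, a neighbour of *TRH*, was at 23 against 6 to 8, and *TTR* at 130 against 22 to 35. The summed endoderm list was at 1161 against 33 to 89 and the summed mesenchyme list at 2936 against 144 to 177.

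On day 12 the gaps were small in size. *FURIN* was at 9 in KO#2 replicate 1 and at 10 in the other 3, *GNPNAT1* at 10 against 11, and *VRTN* at 4 against 5 in the same library. *SIX6* was at 6 in KO#10 replicate 2 against 4, and *TTR* was at 3 in KO#10 replicate 1 against 0. The summed endoderm list was at 19 in KO#10 replicate 1 against 1 to 3.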

How the results depend on the processing

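All 59 alternative values of the *TRH* differences kept their direction and lay within 1 replicate SD of the value given. As *TRH* was chosen by these values, this is a description and no support for them. The 59 leave out the split by replicate number, where some values lay further off. There the change between the days was 1.81 and 0.11 against 0.96. Day 24 minus day 12 in KO was 3.13 and 1.11 against 2.12. Leaving out 1 library gave 3.28 to 3.62 for KO minus WT on day 24, 2.16 to 2.77 on day 12, and 0.65 to 1.26 for the change between the days. A pseudocount of 0.1 gave 3.65, 3.03 and 0.63. The replicate block left 3.42, 2.45 and 0.96, as it must for mean differences in a balanced design. Of the 10 genes most like *TRH*, 5 were shared with a ranking by Spearman's rho and 4 to 9 when 1 library was left out.

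The counts of calls moved more. On day 24 they were 1 to 722 higher and 1 to 624 lower when 1 library was left out, and in the lists around *TRH* 0 to 10 and 0 to 6, while other settings gave 6 to 9 and 3 to 5 in the lists. Counts over all genes on day 12 (2 higher and 6 lower) were 0 and 3 without a filter, 80 and 65 at an unadjusted *p*, 36 and 35 with the replicate block, 0 and 1 with separate clones, 13 lower without a variance trend, 1 higher in 1 fit of 12 libraries, and 0 to 2 and 1 to 2 with 1 library left out. In the lists, 2 were higher on day 12 at an unadjusted *p*. For the interaction, 449 higher and 515 lower passed at an unadjusted *p* and 158 and 210 with the block, and 1 to 419 and 10 to 497 with 1 library left out. In the lists, where none was called, these were 6 and 7, 0 and 2, and 0 to 3 and 0 to 5, with 1 higher under either weaker filter and 1 higher and 1 lower without a trend. The block changed no other call by over 1.5 times. The causes were not tested. Depth is unknown, and for genes at values of a few units, as *TRH* is in WT, a step of 1 unit is a large part of a fold change.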
